A study of Mus musculus with 2 samples.

Results

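Long intergenic noncoding RNAs that the files name linc and a number were examined for Ago2 binding in mouse embryonic stem cells. They were chosen by name alone: every gene of the deposited site table whose symbol is linc followed by digits was taken, with all its predicted microRNA sites and its enriched clusters. This gave 181 of 15271 genes, with 153261 of 1641948 entries of that table, on 20 chromosomes. The measurement was iCLIP, in which a protein is crosslinked to RNA in living cells, immunoprecipitated, and the RNA fragments it holds are sequenced. The first group, the clonal line TT-FHAgo2, expressed human Ago2 with a FLAG-HA tag from a doxycycline-inducible construct, and the second, the clonal line TT-Ago2, the same protein without a tag as a control for the FLAG and HA immunoprecipitations. In both lines the human protein was the single Argonaute family member, and both were kept in 0.1 µg/mL doxycycline and raised to 2.5 µg/mL for 24 h. Each group had 1 library, so nothing here has a replicate check. Intervals are exact (Clopper-Pearson) 95% binomial intervals that cover counting error only, and no p was computed. Intervals over sites, that of the ratio included, take each site as independent. Neighbouring sites share reads, so these intervals are too narrow.

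Long intergenic noncoding RNAs are transcribed from their own units between protein-coding genes, and many are spliced and polyadenylated like messenger RNAs. As background, most are present at low levels, a number of them stay in the nucleus, and some have been proposed to compete with messenger RNAs for microRNAs. Argonaute proteins carry microRNAs, whose seed (bases 2 to 8) pairs with matching 8mers, 7mers or 6mers in a target. The study is titled after this competition. The data below bear on it only by giving how many linc genes had reads of the tagged library, and at which matches. Competition itself was not measured here.

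The tagged library had 789000 reads by the scale of the site table. Of 1411606 distinct sites (overlapping and nested matches resolved), 134347 lay in linc genes. Markers of embryonic stem cells were listed for 10 of 10 genes at 40.3 to 1655 FPKM (fragments scaled to transcript length and library size, the authors' expression unit), Pou5f1 at 609 FPKM. Of 5 primitive endoderm markers, 3 were listed, all at 0.618 FPKM or less. Of 5 trophectoderm markers, 3 were listed at up to 13.9 FPKM, of 5 fibroblast markers 3 at up to 45.0 FPKM (Vim), and of 5 neural and mesoderm markers 3 at up to 40.1 FPKM (Tubb3).

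The linc genes were weakly expressed, and few had an enriched Ago2 cluster. Their listed level had a median of 0.401 FPKM (interquartile range 0.201 to 1.13), against 4.73 FPKM for all other genes and 0.322 FPKM for the 493 other genes whose sites are annotated as long noncoding RNA. Only 49 of 181 reached 1 FPKM and 4 reached 10 FPKM. An enriched cluster, that is, a stretch of tagged reads over the untagged library at the authors' threshold of p under 0.05, was present in 2 of 181 linc genes (1.10%, 0.134 to 3.93), linc444 and linc741. Of all genes with sites, 16.7% had one, and among the other long noncoding RNA genes 9 of 493 (1.83%). Restricted to levels of at least 1 FPKM, the shares were 2 of 49 linc genes (4.08%), 4 of 104 other long noncoding RNA genes (3.85%) and 2353 of 10849 of all other genes (21.7%).

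Single reads reached many more linc genes than clusters did. At least 1 read lay on a distinct site in 101 of 181 linc genes (55.8%, 48.2 to 63.2), against 67.5% of all genes of the table. Among other long noncoding RNA genes the share was 207 of 493 (42.0%, 37.6 to 46.5). Linc genes offered a median of 166 distinct sites each, against 131 for other long noncoding RNA genes and 56 for all other genes. By site, 901 of 134347 held a read (0.671%, 0.628 to 0.716), against 8.91% of all distinct sites of the table, 0.539% in other long noncoding RNA genes and 13.96% in 3' UTRs of other genes. Thus, linc sites resembled those of other long noncoding RNA genes far more than those of 3' UTRs, and the gap to 3' UTRs was far wider than the counting intervals. At least 2 reads were found at 214 linc sites (0.159%), where the whole table had 2.96%. A cluster covered 23 linc sites (0.0171%), where the whole table had 0.567%.

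The way the sites of these genes were listed bears on that share. Entries per kilobase between the outermost sites had a median of 38.0 (interquartile range 35.5 to 40.5, range 7.95 to 72.2), over spans with a median of 4.987 kb (0.25 to 699.5). The lowest density was that of linc219, 7.95 entries per kilobase over 699.5 kb, the longest span. The table does not mark exons and introns of these genes, which cannot be told apart here. The 10 linc genes longer than 100 kb held 82690 distinct sites (61.5% of all linc sites) and 98 supported ones, or 0.119%. Without them 1.55% of linc sites held a read. Among the 10, linc210, linc211, linc216, linc219 and linc220 overlap or lie next to each other on chromosome 13, between 65516200 and 66858316. They held 11696, 16458, 8775, 4838 and 9736 distinct sites, of which 8, 9, 0, 2 and 4 were supported. The median PhastCons score (conservation across species, from 0 to 1) of their sites was 0 in each. The part of this locus and that of intronic sequence in the low shares were not tested.

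Support rose with listed expression, most steeply at the upper end. Of sites in linc genes at 0.1 to 0.3 FPKM, 0.362% held a read, and at 0.3 to 1 FPKM 0.431%. At 1 to 3 FPKM the share was 0.491%, at 3 to 10 FPKM 3.21% (2.67 to 3.83) and from 10 FPKM upwards 27.0% (24.1 to 30.2). The last group holds only 4 genes, and without linc444 its share was 12.1% (9.61 to 15.0). Other long noncoding RNA genes had 0.444% in the lowest of these classes and 3.06% (2.36 to 3.90) in the highest, from 21 genes. At 1 to 3 FPKM they had 0.701% (0.622 to 0.788), above the interval of linc genes (0.418 to 0.573). At 3 to 10 FPKM they had 0.706% (0.521 to 0.935). In this class and the highest the intervals of linc genes lay above theirs, also without linc444, so no single order held across classes. For 3' UTR sites the same classes ran from 4.52% to 23.99%. Over the 179 linc genes with at least 20 distinct sites, the rank correlation of listed level and supported share was 0.433, a description across genes that share 1 library.

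**Figure D1:**
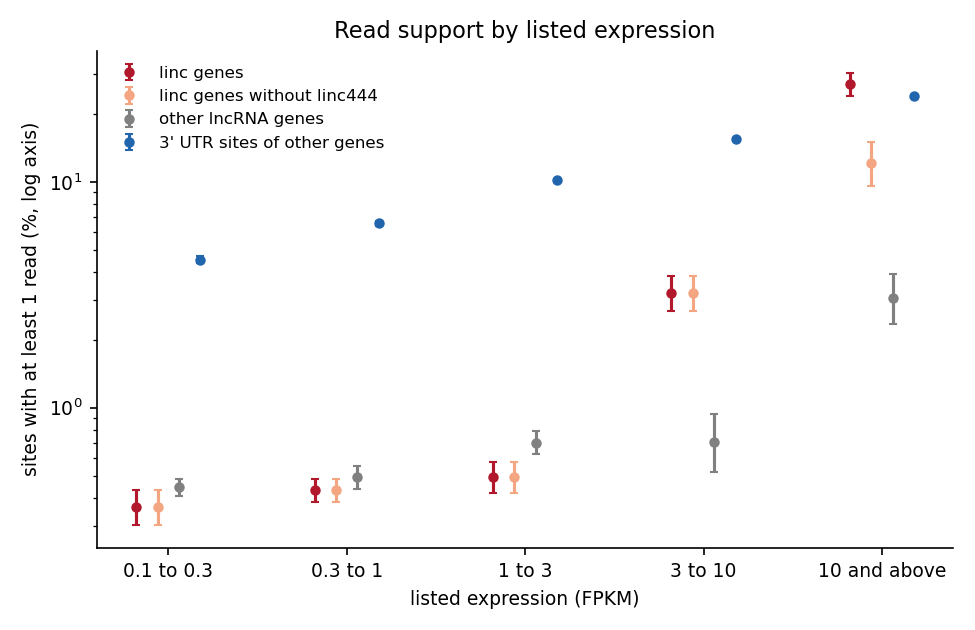
Share of distinct sites with at least 1 read (percent, log axis) by class of listed expression (FPKM); points are shares over sites, bars exact 95% binomial intervals, and colours the groups of genes. Linc genes lie close to the other long noncoding RNA genes up to 1 FPKM, below them at 1 to 3 FPKM and above them from there on, below the 3' UTR sites in every class under 10 FPKM, and the highest class moves from 27.0% to 12.1% without linc444.

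Reads were concentrated in a few linc genes. Because neighbouring sites share reads, supported sites within 50 nt of each other were joined into blocks, each valued at its highest site. The 181 genes held 403 blocks with 674 reads in all, and 318 blocks (78.9%) consisted of a single read. Of the blocks, 17 in 8 genes reached 5 reads. Blocks were not built for other genes, so no share over all genes stands beside these counts. By site, 214 of 901 supported linc sites had at least 2 reads, and 41819 of 125716 in the whole table. The gene linc444 alone had 177 of the 674 reads (26.3%), linc741 42, linc445 27, linc653 23, linc517 and linc743 18 each and linc26 17. Next came linc299 and linc710 with 16 block reads each, linc705 with 14 and linc63 with 13. The gene linc390, which is among the first by reads summed over sites (24), had 8 block reads, fewer than 15 other linc genes. Of these, linc517, linc63 and linc299 spread their 31, 24 and 23 supported sites over 182, 84.9 and 110 kb, with never more than 2 reads at a site, and linc390 had 24 supported sites with 1 read each.

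Among the 181 genes, linc444 had the most reads at sites. It is transcribed from the minus strand of chromosome 19, with sites from 5795114 to 5802615 (mm9, a span of 7.50 kb). At 27.1 FPKM, linc444 ranked second among linc genes in level. A read was present at 152 of its 229 distinct sites (66.4%, 59.9 to 72.5), the highest share among linc genes with at least 20 sites, and 98 of these sites had at least 2 reads. The site with most reads in any linc gene was an 8mer match of the miR-15/16 seed in linc444, with 35 reads (44.4 rpm, the authors' depth-scaled read unit, and 2.64 on the authors' log2 coverage scale). The 4 tallest blocks of linc444 hold 35, 21, 15 and 14 of its 177 block reads. In the block of 15 reads, the listed 6mer GCACTG also had 15 reads and is not printed. Leading matches of these blocks, 2 for the tallest, follow 5' to 3' in the RNA's sense, with listed seed matches in capitals and control 8mers in lower case.
linc444, chr19:5797635-5797642, 35 reads: TGCTGCTA
linc444, chr19:5797606-5797613, 22 reads: ctggagta
linc444, chr19:5797851-5797856, 21 reads: TTGCAT
linc444, chr19:5796836-5796843, 15 reads: tcactaaa
linc444, chr19:5799839-5799846, 14 reads: GGCAGCTA

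The microRNAs whose seeds match the leading sites are given next, as mature sequences from RefSeq (GRCm38.p6) with the seed in capitals. Of the 50 listed 7mers, 44 matched a mature microRNA there. TGCTGCTA extends the match of the miR-15/16 family, a widely expressed family known for targets among cell cycle genes. GGCAGCTA extends that of miR-22. GTTTGAG, which leads in linc741, matches 5' arms of the miR-290 cluster, the main microRNA cluster of mouse embryonic stem cells. CAGCAGG, which shares the most reads in linc653 with the listed 6mer AGGTGA of another family, matches miR-370.
mmu-miR-16-5p: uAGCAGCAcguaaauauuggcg
mmu-miR-15b-5p: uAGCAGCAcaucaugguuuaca
mmu-miR-22-3p: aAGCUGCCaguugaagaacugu
mmu-miR-290a-5p: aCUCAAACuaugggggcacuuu
mmu-miR-292a-5p: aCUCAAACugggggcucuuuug
mmu-miR-370-3p: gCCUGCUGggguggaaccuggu

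Coverage of linc444 was broad. In windows of 500 nt counted from the 5'-most listed site, 14 of the 15 windows that hold sites had supported ones. All 17 sites from 4500 to 5000 nt and all 14 from 5500 to 6000 nt held a read, while 0 of 14 sites beyond 7000 nt did. The highest sites of the windows starting at 4500, 5000, 5500 and 2500 nt had 35, 22, 15 and 14 reads, and no other window exceeded 7 reads. Sites with a read were more often conserved. Their median PhastCons score (conservation across species, from 0 to 1) was 0.857, with 91 of 152 above 0.5. For sites without a read the median was 0.0108, with 22 of 77 above 0.5. The difference went with position along the transcript, whose part was not tested. The match TGCTGCTA under the tallest peak scored 0.981, whereas GGCAGCTA, under the peak of 14 reads, scored 0.0054.

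**Figure D2:**
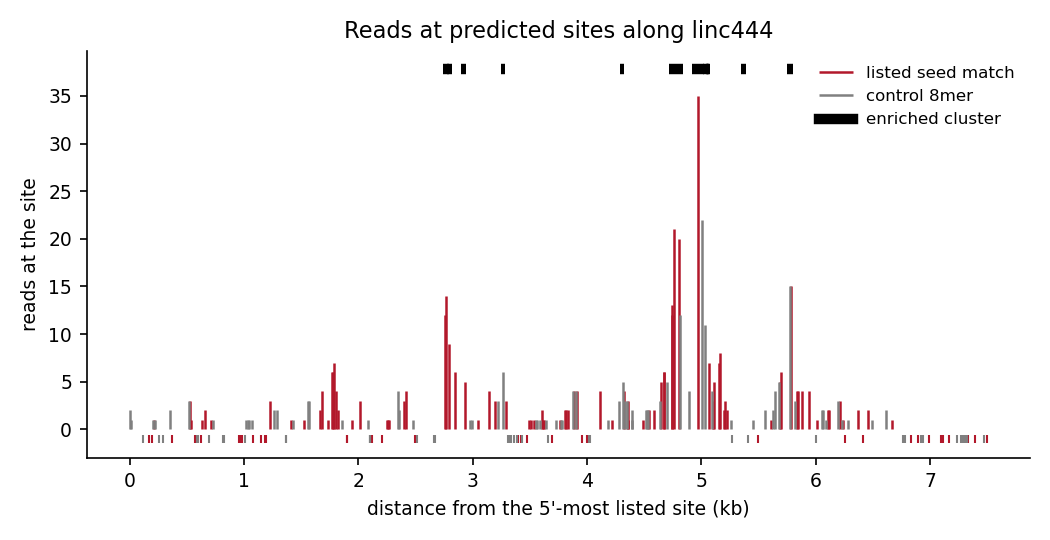
Reads at each distinct site of linc444 (vertical axis, reads) against the distance from its 5'-most listed site (kb); red lines are listed seed matches, grey lines control 8mers, short ticks below 0 are sites without a read and black bars the authors' enriched clusters. Reads cover most of the first 6.7 kb with the tallest sites (35, 22 and 21 reads) near 5 kb, and the last sites have none.

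The authors listed 12 enriched clusters in linc444, between 5796811 and 5799876. Their tagged reads and the untagged reads implied by the authors' enrichment values are those of 2 libraries, and how these were scaled to each other is not given here by any source. The strongest, from 5797596 to 5797696 over TGCTGCTA, had 26 reads with the tag and 1 implied without it. That is 26-fold as a plain ratio, and 3.75 on the authors' log2 enrichment scale. The authors' exact binomial test gave p = 2.09e-07 for it, and 5 crosslink events were listed. The site file gives 35 reads for the match within it, so reads were not counted over the same window in both files. The cluster from 5797774 to 5797894 held 17 against 1 (p = 7.25e-05, the authors' exact binomial test) and covered 4 listed 6mers, among them TTGCAT, and no listed 7mer or 8mer. From 5796811 to 5796869 the counts were 13 against 1, over the 6mer GCACTG. The 2 overlapping clusters from 5799795 to 5799876 held 11 against 2 and 12 against 4, over CCTCTGC and GGCAGCTA. A set of 3 overlapping clusters from 5797542 to 5797601 was listed with 10 against 2 each, 2 of them over AAGCCAT. The remaining 4 had 5 or 6 reads against 0, where 5 against 0 is the lowest that passes the authors' threshold, and 1 of these lay over CAGGTGA.

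At least 1 untagged read was implied in 8 of the 12 clusters, and in 4 of 8 once overlapping clusters were joined and the one with most tagged reads kept. No untagged read was implied in 4 of 12 (33.3%), against 85.6% of all 6211 clusters. Among clusters of at least 7 reads, where the threshold does not require it, 0 of 8 in linc444 were free of untagged reads, against 74.3% of the list. Tagged and untagged reads summed to 130 and 15 over the 12 clusters, and to 89 and 7 over the 8 joined ones. Of the 12 clusters, 6 covered a listed 7mer or 8mer and 8 covered any listed match. Overlapping clusters over the same match are counted separately in these numbers. No share over all 6211 clusters stands beside them, so they are a description of linc444 alone. By the authors' p, 3 of 12 were below 0.01, against 49.6% of the list.

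The other linc gene with clusters, linc741, has sites from 67082369 to 67120888 on the minus strand of chromosome 7 (38.5 kb) and a level of 4.49 FPKM. It lies between Ube3a, 520 kb away, and Snrpn, 6.595 kb away, and RefSeq on GRCm38 lists Snhg14 and Ipw as long noncoding RNA genes between these neighbours. Neither file pairs a linc number with such a name, and none is assigned here. A read was present at 36 of its 1138 distinct sites (3.16%, 2.23 to 4.35). Unlike linc444, its reads left most of the locus empty: 9 of 78 windows of 500 nt had a supported site, 8 of them within the first 6500 nt. Its 2 clusters were free of untagged reads. The first, from 67114590 to 67114647, held 13 against 0 (at least 4.33-fold against a floor of 3 counts per cluster), and the second, from 67115241 to 67115288, 10 against 0 (at least 3.33-fold). The first covered the 7mer of the miR-290 cluster's 5' arms and the second the 7mer of miR-15/16 and the 6mer TTGCAT. These matches, with the control 8mer beside them, were the best covered of the gene and are shown for that reason.
linc741, chr7:67114619-67114625, 13 reads: GTTTGAG
linc741, chr7:67115243-67115250, 11 reads: tcccaaga
linc741, chr7:67115260-67115266, 10 reads: TGCTGCT

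None of them is conserved by score: their PhastCons values were 0.0177, 0.0021 and 0.0024. In linc741 as a whole, 3 of 36 sites with a read and 11 of 1102 without scored above 0.5.

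**Figure D3:**
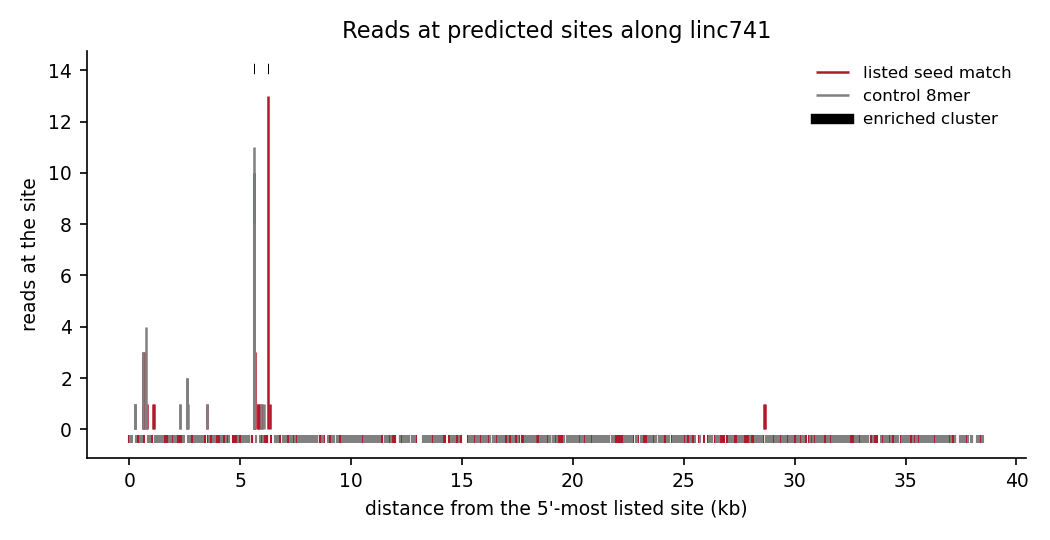
Reads at each distinct site of linc741 (vertical axis, reads) against the distance from its 5'-most listed site (kb); red lines are listed seed matches, grey lines control 8mers, short ticks below 0 are sites without a read and the small black bars at the top the 2 enriched clusters. The tallest sites, with 13 and 11 reads, sit under the clusters in the windows from 5500 to 6500 nt, and most of the locus has no read.

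High expression did not go with a cluster in the other leading linc genes. The most expressed, linc445 on the minus strand of chromosome 19 from 5842312 to 5845696, was listed at 99.6 FPKM. It had a read at 44 of 111 distinct sites (39.6%, 30.5 to 49.4), at most 4 reads at a site and no cluster. Its level was 3.67 times that of linc444, while its supported share was lower. The intervals of the shares did not overlap, but they take neighbouring sites as independent. For linc445 the median PhastCons score was 0.006 at sites with a read and 0.0223 at sites without. Above 0.5 were 7 of 44 and 7 of 67. For linc743 (15.98 FPKM) 29 of 431 sites held a read (6.73%), and for linc813 (7.72 FPKM) 10 of 161 (6.21%). The fourth by level, linc667 at 12.2 FPKM, had no read at any of its 61 distinct sites, which allows a share of up to 4.92% by the limit of 3 counts and of 5.87% by the exact interval. The other linc genes of highest level without a read were linc805 (2.15 FPKM, 70 sites), linc284 (2.03 FPKM, 39 sites), linc350 (1.56 FPKM, 161 sites) and linc170 (1.55 FPKM, 101 sites). In all, 80 linc genes had no supported site, and their median level was 0.259 FPKM with 92.5 sites, against 0.584 FPKM and 299 sites for the 101 with one.

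The opposite case was linc26 on chromosome 1 from 162933397 to 162936542, on the minus strand 28.4 kb from Rc3h1 and 2.39 kb from Zbtb37. At 0.738 FPKM, rank 59 among linc genes, it had a read at 40 of 112 distinct sites (35.7%, 26.9 to 45.3), where all linc sites at 0.3 to 1 FPKM had 0.431%. All 7 windows of 500 nt had supported sites, and the highest site had 5 reads. No cluster was listed. Of sites with a read, 21 of 40 scored above 0.5 for conservation, and of sites without, 20 of 72 did.

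**Figure D4:**
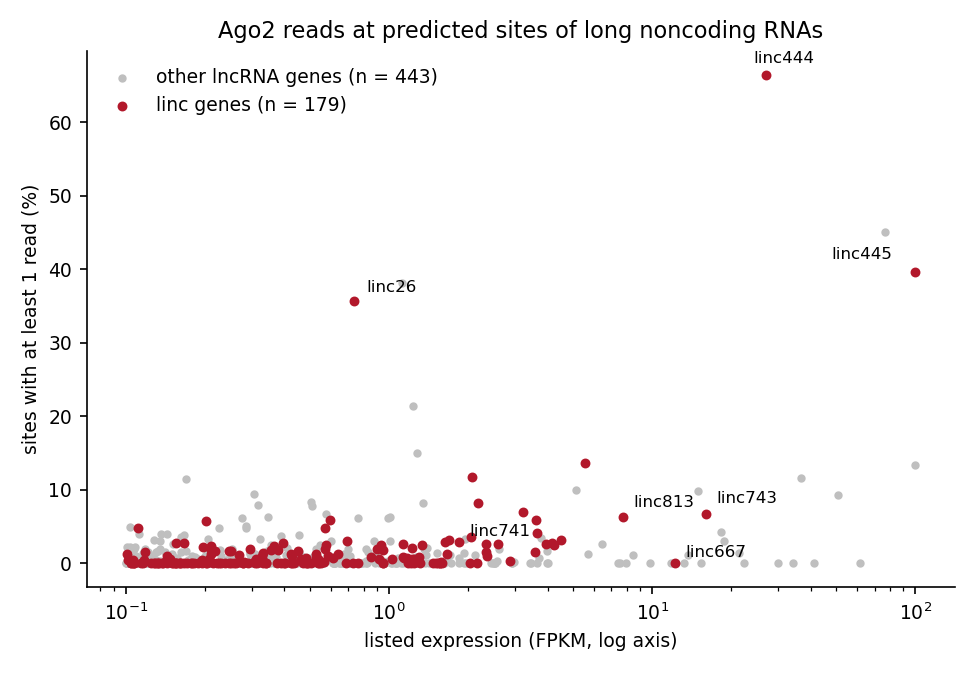
Share of distinct sites with at least 1 read (percent) against listed expression (FPKM, log axis) for the 179 linc genes (red) and the other long noncoding RNA genes (grey) with at least 20 distinct sites, 1 point a gene. linc444 (66.4%), linc445 (39.6%) and linc26 (35.7%) stand above the rest of the linc genes, and linc667 lies at 0 in spite of 12.2 FPKM.

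Of the 17 blocks with at least 5 reads, 9 overlapped an enriched cluster of any name and 8 did not. Block reads and cluster reads were not counted over the same window, so the authors' cluster threshold cannot be applied to blocks. Outside clusters were 2 blocks of linc444 and 6 in other genes. The tallest of these 6 were in linc653 (chromosome 5, 15 reads over the miR-370 match and over AGGTGA) and in linc710 and linc820 (9 reads each). The others were in linc210, linc26 and linc282 with 5 reads each. Except for linc653 and linc26, these genes were named after their values were seen. The matches under the tallest blocks without a cluster are shown for their site reads, which are not cluster reads. The listed 6mers AGGTGA in linc653 (15 reads) and TGAGCC in linc820 (9 reads) had as many reads as the matches shown and are not printed. In linc820 the deposited matches overlap and join to 14 nt, with the 7mer of miR-434 in capitals.
linc653, chr5:137408833-137408839, 15 reads: CAGCAGG
linc710, chr6:134881668-134881675, 9 reads: TTGGGAGA
linc820, chr8:125083681-125083694, 9 reads: gGGTTCAAgtccca

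Untagged reads outside clusters are not analysed here. The PhastCons scores of these matches were 0 in linc653 and linc820 and 0.0108 in linc710.

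Within linc genes, matches of the listed microRNA seeds held reads more often than control 8mers. The shares were 482 of 59200 (0.814%, 0.743 to 0.890) and 419 of 75147 (0.558%, 0.506 to 0.613), a ratio of 1.46 (1.28 to 1.66, from the binomial variance on the log scale). The same ratio was 1.45 in all other genes, 1.44 in 3' UTRs and 1.38 in other long noncoding RNA genes, so the ratio of linc genes holds these values within its interval. Without linc444 it was 1.43. No order by match length was detectable at this depth: 33 of 4243 8mers (0.778%, 0.536 to 1.09), 111 of 11911 7mers (0.932%, 0.767 to 1.12) and 338 of 43046 6mers (0.785%, 0.704 to 0.873) held a read. In 3' UTRs of other genes the shares were 21.1%, 19.7% and 15.1% in that order.

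Among the 48 seed families, which join 7mers with a common 6mer, the match of miR-15/16 (TGCTGCT) had the most supported linc sites, 27 of 1256 (2.15%, 1.42 to 3.11) in 19 genes. GTTTGAG followed with 20 of 1905 (1.05%) in 13 genes and CTTTGAT, the match of another 5' arm of the miR-290 cluster, with 19 of 1827 (1.04%). GTCTTCC, the match of miR-7, had 18 of 2190 (0.822%). GAGCCTG, the match of miR-484, had 17 of 1677 (1.01%), as many supported sites as GTGCCTT (17 of 1735). In linc444 itself, where 152 of all 229 distinct sites held a read (66.4%), 2 of 2 sites of TGCTGCT and 5 of 5 of GTTTGAG did. There CTTTGAT had 2 of 4, GTCTTCC 1 of 1 and GAGCCTG 3 of 4. Further families were also complete in linc444, among them TTGGGAG and CCTCTGC with 4 of 4 each, so these small counts single out no family. The stem cell family AGCACTT with GGCACTT, first among all other genes with 37.3% of sites, had 16 of 800 in linc genes (2%, 1.15 to 3.23), rank 5 in share. Each of the 48 families had a lower share in linc genes than in all other genes, and 1 family had no supported linc site.

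**Figure D5:**
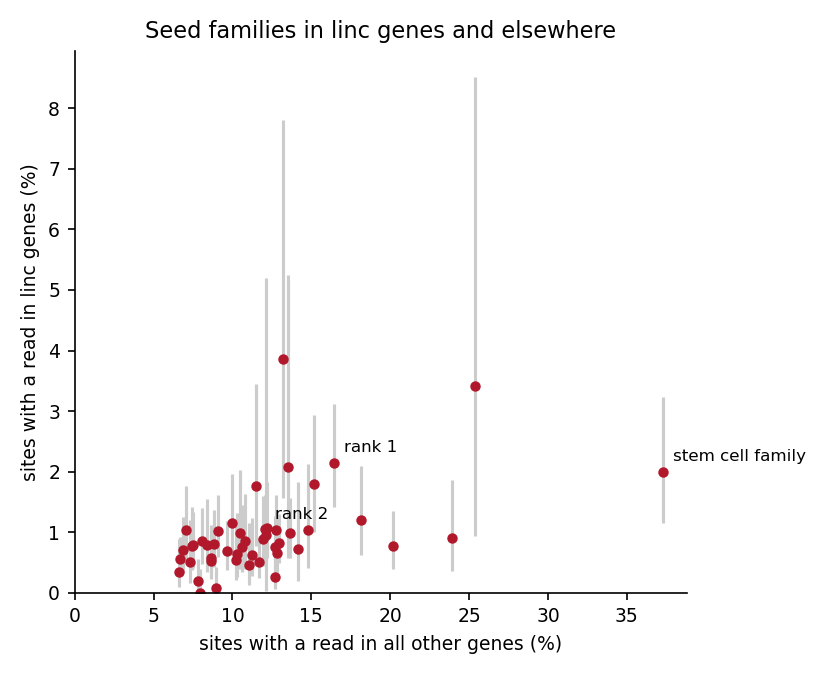
Share of sites with a read (percent) in linc genes against that in all other genes for the 48 seed families, 1 point a family, with exact 95% binomial intervals for linc genes; rank 1 and rank 2 mark the families with the most supported linc sites (TGCTGCT and GTTTGAG), and the stem cell family is AGCACTT with GGCACTT. All points lie below 4% in linc genes, and the stem cell family, at 37.3% elsewhere, is at 2% here.

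A further 5 names of the same kind carried clusters but had no sites in the table used here, so they fall outside the 181 genes and have no listed level. The largest was linc486 on the plus strand of chromosome 2, with 11 clusters from 119426026 to 119429540, 115 tagged reads and 4 untagged. With overlapping clusters joined as for linc444, it had 91 against 3 over 9 clusters, so the order of both names by tagged reads depends on the joining. Its strongest cluster, from 119427716 to 119427835, held 24 against 0 (at least 8-fold; p = 5.96e-08, exact binomial test of the authors) with 9 crosslink events listed, and 8 of its 11 clusters were free of untagged reads. In the files it lies between 1500003O03Rik and Oip5, where RefSeq on GRCm38 lists Oip5os1 as the only long noncoding RNA gene. The other 4 had 1 cluster each, all against 0 untagged reads: linc186 (chromosome 12, 8 reads, between Nampt and Sypl), linc412 (chromosome 17, 6 reads, between Srsf3 and Cdkn1a), linc882 (chromosome X, 6 reads) and linc96 (chromosome 11, 5 reads, between Smtn and Morc2a). With them, linc names held 29 of the 50 clusters annotated as long noncoding RNA, with 293 of 459 tagged reads and 19 of 21 untagged. A comparison list of 43 symbols of other well-known long noncoding RNAs could not be used, since 1 of its symbols, Snhg11, matches a gene name of the table.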

How the data were processed

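The deposited files hold the tagged library, and the untagged library enters only through the authors' enrichment values. Bowtie, TopHat, mm9 and NCBIM37 are named in the submitters' processing notes, without versions or roles. The cluster caller and the source of the expression values are not stated by any source used here. Coordinates are 1-based on mm9.

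The peak height of a cluster, per the file headers, is a signal given as whole reads. The cluster score is other text that joins reads, log2 enrichment and a binomial p-value, made by the authors. An untagged whole number was recovered that fits their log2 within 0.005 and their p within 0.0001 in all 6211 clusters. It was never 3 but was 2 in 134 and 4 in 36, so it is not a plain count. The crosslink column is other text per the file headers.

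Site coverage is in rpm scaled by the authors. Divided by a step of 1.27 rpm, all 1641948 values (100%) came out whole within 0.001, which recovers the reads. With 1 library a group no count test was possible and no genes were called. Isoform expression is FPKM as deposited by the authors, log2 coverage is a log2 value per the file headers, and PhastCons is a score per the file headers.

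Sites were made distinct by position and sequence (22927 repeats removed). Nested matches (12225 7mers, 25025 6mers) were dropped in favour of the longer one, as were 170165 control 8mers that overlap a listed match. Control means the 966 8mers that extend none of the 50 listed 7mers, and some are seed matches of other microRNAs. Overlap means at least 1 nt on 1 strand. Shares used Python 3.11.15 with scipy 1.17.1, tested on simulated data. Genes were named by a rule: all linc names with clusters, the 10 with most reads summed over sites, the 5 of highest level with and without reads, the 10 sites with most reads and the 5 families with most supported sites. Members, lists and alternatives were chosen with earlier results of these data known. Alternatives were other read minimums, cluster overlap, stricter p, expression and span limits, and leaving out linc444.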

Additional observations from a re-analysis of the deposited data

How the results depend on the processing

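No paired analysis was possible because each group has 1 library, and no replicate could be left out. Of 42 alternative values, 17 stayed within the counting interval of the main value (or within 1.5 times a read total), 24 moved beyond it and 1 turned. The turn was in the share of linc sites with a read minus that of other genes (-9.10 percentage points), which became 0.132 against other long noncoding RNA genes. It was -13.3 against 3' UTR sites, -3.99 within strata of FPKM, -3.10 at 2 reads, -9.21 without linc444, -10.8 for listed seeds and, added after seeing the data, -8.22 without genes over 100 kb. The share itself (0.671%) was 0.159% at 2 reads, 0.0171% over clusters, 1.36% at 1 FPKM and above, 0.558% without linc444, 0.814% for listed seeds, 0.891% for 7mers and 8mers, and 1.55% without genes over 100 kb. At 2 reads, 8mers had 0.141%, 7mers 0.285% and 6mers 0.197%, and without linc444 6mers had 0.647%. The ratio of listed to control shares (1.46) was 1.78 at 2 reads and 1.97 over clusters (0.855 to 4.56, from 14 and 9 sites). Linc genes with a cluster were 4.08% at 1 FPKM and above. Tagged reads in their clusters (153) were 79 at p under 0.01, 23 without linc444 and, added after seeing the data, 293 for every linc name. Clusters free of untagged reads (42.9%) were 100% without linc444, from 2 clusters. Single sites rest on few reads: 78.9% of linc blocks hold 1 read, and blocks were not built for other genes.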
